A study of Homo sapiens with 10 samples.

Results

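Chromatin sites of 2 mutants of MYC, named 3A and 7A, were compared in U2OS cells, a human osteosarcoma line. All groups used here were U2OS-MYC-KO cells, in which the cells' own MYC was knocked out, with FLAG-tagged 3A, 7A or wild-type (WT) MYC expressed from a doxycycline-inducible construct. Each was induced with 1 µg/mL doxycycline for 24 h and immunoprecipitated (IP) with an antibody to FLAG, with 2 libraries per protein and mouse NIH3T3 cells added at 10% as a reference genome. The labels do not say which residues the mutants change or whether a line is 1 clone. The uninduced WT IPs and the inputs were not analysed here.

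The members are the peaks of the 3A and 7A lists, 1 pooled list per mutant. A site was counted as shared when its peaks overlapped by 1 bp or more. There were 845 peaks for 3A and 64 for 7A, of 5658 peaks in the series, of which 4749 were from WT. They make 860 sites: 796 with a 3A peak only, 49 with a peak of both mutants and 15 with a 7A peak only. With 1 list per protein there is no spread between replicates and no test between the mutants. Intervals are Wilson 95% intervals and cover counting error only. A missing 7A peak means that the authors' calling listed none, not that 7A was absent. No read totals per library were used here.

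MYC is a basic helix-loop-helix leucine zipper transcription factor that binds DNA as a dimer with MAX. Its preferred site is the E-box CACGTG, and in many cell types it occupies the promoters of active genes, among them genes for ribosomes, RNA processing, nucleotide synthesis and protein folding. It is also found at enhancers away from genes.

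The promoters below are examples of gene starts with peaks of both mutants or of 3A alone. They are the 6 promoters with the highest 7A fold enrichment among genes with a summit of both mutants, and the 3 with the highest 3A fold enrichment among genes at a 3A peak without 7A. Genes with no entry in the promoter table, genes with 7A alone and sites away from starts are not shown. Each line gives the 250 bases before the gene's start, 5′ to 3′ on the gene's strand, from RefSeq, GRCh38.p14. Capitals mark 3 motifs on either strand. The first is CACGTG. The next is CACGCG, which reads CGCGTG on the other strand. The last is CATGTG, which reads CACATG on the other strand. The 7A summits of RCOR3, MTF2 and SLC39A11 and the 3A summit of ATR lie within the bases shown, and the other summits outside them.
The first 6 had peaks of both mutants.
RPL27 (chr17:42998169-42998418, plus strand): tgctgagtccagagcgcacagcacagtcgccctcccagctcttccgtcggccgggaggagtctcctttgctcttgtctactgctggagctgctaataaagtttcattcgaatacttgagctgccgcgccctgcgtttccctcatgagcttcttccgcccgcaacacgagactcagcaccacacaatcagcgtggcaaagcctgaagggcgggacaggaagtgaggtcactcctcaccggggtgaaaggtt
RCOR3 (chr1:211259116-211259365, plus strand): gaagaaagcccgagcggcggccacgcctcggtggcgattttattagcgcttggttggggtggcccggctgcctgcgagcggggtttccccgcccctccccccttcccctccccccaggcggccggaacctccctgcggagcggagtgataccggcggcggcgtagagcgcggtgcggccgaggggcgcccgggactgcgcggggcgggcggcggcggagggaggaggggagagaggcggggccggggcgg
MTF2 (chr1:93079033-93079282, plus strand): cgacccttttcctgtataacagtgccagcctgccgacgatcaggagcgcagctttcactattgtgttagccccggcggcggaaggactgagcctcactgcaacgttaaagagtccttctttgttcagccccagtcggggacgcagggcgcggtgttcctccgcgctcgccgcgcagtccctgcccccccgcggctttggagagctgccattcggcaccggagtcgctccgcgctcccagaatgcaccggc
AXL (chr19:41226505-41226754, plus strand): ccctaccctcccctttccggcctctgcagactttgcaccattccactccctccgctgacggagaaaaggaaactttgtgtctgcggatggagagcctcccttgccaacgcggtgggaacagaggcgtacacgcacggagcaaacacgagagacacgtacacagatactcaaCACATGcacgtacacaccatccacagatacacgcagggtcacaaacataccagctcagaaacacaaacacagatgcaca
RAB5C (chr17:42154990-42155239, minus strand): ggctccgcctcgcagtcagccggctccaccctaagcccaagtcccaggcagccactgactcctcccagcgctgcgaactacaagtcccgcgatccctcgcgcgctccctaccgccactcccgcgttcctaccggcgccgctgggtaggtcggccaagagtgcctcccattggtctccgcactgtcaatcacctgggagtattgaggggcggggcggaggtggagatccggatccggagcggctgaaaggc
SLC39A11 (chr17:73092689-73092938, minus strand): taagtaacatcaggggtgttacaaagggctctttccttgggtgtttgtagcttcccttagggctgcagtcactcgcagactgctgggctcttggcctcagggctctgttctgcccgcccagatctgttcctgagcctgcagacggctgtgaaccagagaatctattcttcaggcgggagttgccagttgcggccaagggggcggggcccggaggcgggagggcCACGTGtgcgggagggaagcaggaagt
The next 3 had a 3A peak and no 7A peak.
ING5 (chr2:241701789-241702038, plus strand): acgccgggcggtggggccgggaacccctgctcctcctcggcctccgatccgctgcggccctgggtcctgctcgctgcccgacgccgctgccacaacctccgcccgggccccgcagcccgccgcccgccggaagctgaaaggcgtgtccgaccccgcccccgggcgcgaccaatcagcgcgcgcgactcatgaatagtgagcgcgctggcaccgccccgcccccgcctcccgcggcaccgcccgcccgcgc
RPL36 (chr19:5690045-5690294, plus strand): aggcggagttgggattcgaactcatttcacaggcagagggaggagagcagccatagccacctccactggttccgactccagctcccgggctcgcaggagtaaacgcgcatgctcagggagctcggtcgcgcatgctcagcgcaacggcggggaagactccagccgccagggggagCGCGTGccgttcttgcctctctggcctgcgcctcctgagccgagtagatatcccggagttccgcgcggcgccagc
ATR (chr3:142578734-142578983, minus strand): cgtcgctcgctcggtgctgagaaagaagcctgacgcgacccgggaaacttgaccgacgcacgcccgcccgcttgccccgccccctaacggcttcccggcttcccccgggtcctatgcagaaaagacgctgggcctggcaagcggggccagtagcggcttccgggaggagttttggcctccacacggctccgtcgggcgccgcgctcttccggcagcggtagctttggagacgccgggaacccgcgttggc

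Few 3A sites were also listed for 7A, and most 7A sites were also listed for 3A. Of the 845 peaks of 3A, 49 had a 7A peak, or 5.80% (4.41 to 7.58%). Seen from 7A, 49 of 64 peaks had a 3A peak, or 76.6% (64.9 to 85.3%). The overlaps were deep. The smallest, at the start of the zinc transporter gene SLC39A11, was 315 bp, and the median was 479 bp. Among nuclear 7A peaks without a 3A peak, the smallest gap to a 3A peak was 33593 bp, at a site 99477 bp from the dopamine receptor gene DRD1. Among 3A peaks without 7A, the smallest gap to a 7A peak was 277 bp, at a second 3A peak inside CUEDC1 (3A fold 3.44) beside a shared one. The next smallest was 3441 bp, at a 3A peak over 50 kb from its nearest gene, CEBPB. The summits of shared peaks were a median of 41.0 bp apart, with a range of 1 to 251 bp.

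The 2 sets of 3A peaks differed in location. Of 3A summits without a 7A peak, 612 of 796 (76.9%, 73.8 to 79.7%) lay within 1 kb of the start of a protein-coding gene, called at a start below. Of the 49 shared 3A summits, 19 did (38.8%, 26.4 to 52.8%), and the 2 intervals do not overlap. The other 30 shared 7A summits were inside a gene away from its start (7), outside genes within 50 kb of a start (12) or farther (11). Of 3A summits without 7A, 6.28% (4.80 to 8.19%) were outside genes and over 50 kb from a start, against 22.4% (13.0 to 35.9%) of the shared ones. Read from the 3A list, 7A had a peak at 19 of 631 start sites (3.01%, 1.94 to 4.65%) and at 30 of 214 sites away from starts (14.0%, 10.00 to 19.3%). The background over the whole 3A list was 5.80%.

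**Figure D1:**
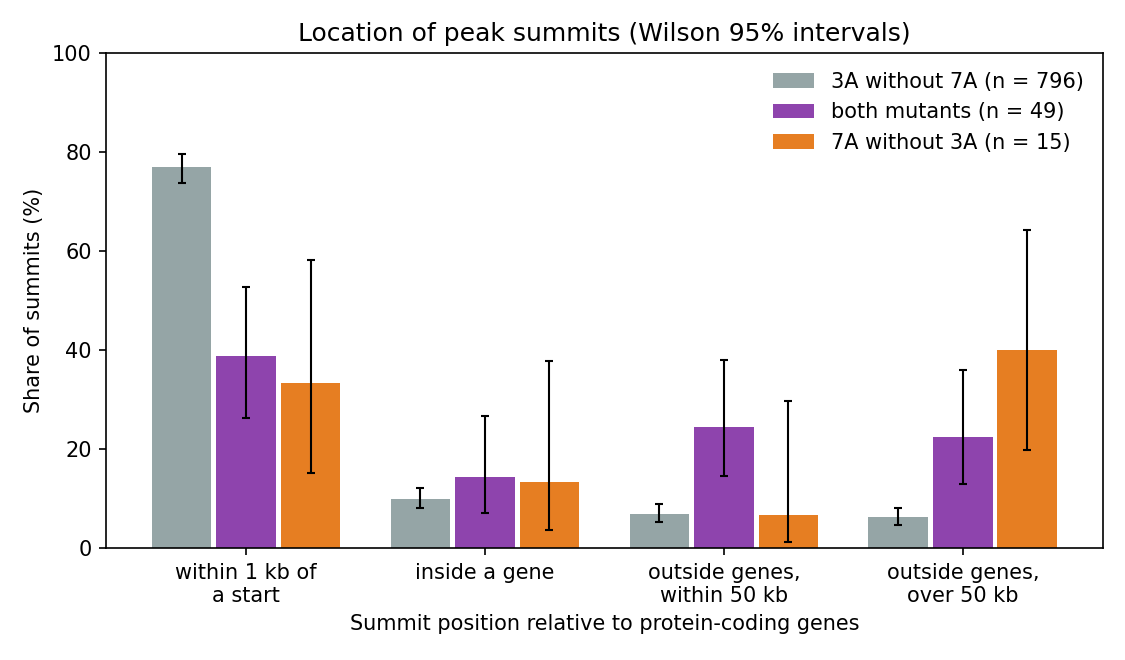
Share of summits (y axis, percent) in 4 classes of position relative to protein-coding genes (x axis) for 3A peaks without 7A, sites of both mutants and 7A peaks without 3A. Bars are shares and lines Wilson 95% intervals, and the mitochondrial 7A peak is in none of the classes. Summits at a start made up 76.9% of 3A peaks without 7A, 38.8% of shared sites and 33.3% of 7A peaks without 3A.

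The sites that 7A shared had higher enrichment in the 3A list. The authors' fold enrichment, the IP pileup at the summit over the local background, had a median of 3.93 (quartiles 3.66 to 4.46) in shared 3A peaks and 3.36 (2.88 to 3.96) in 3A peaks without 7A. In 0.733 of all pairs of a shared and an unshared 3A peak, the shared peak had the higher fold. At starts, 2 of 336 3A peaks with a fold below the list's median of 3.41 had a 7A peak (0.595%, 0.163 to 2.14%). At or above the median, 17 of 295 had one (5.76%, 3.63 to 9.03%). Away from starts the counts were 4 of 86 (4.65%, 1.82 to 11.4%) and 26 of 128 (20.3%, 14.3 to 28.1%). Sites away from starts thus had the higher share on both sides of the median, with overlapping intervals below it. Among the 85 3A peaks with the highest folds the order was the other way, with overlapping intervals, 9 of 61 at starts (14.8%, 7.96 to 25.7%) and 2 of 24 away from them (8.33%, 2.32 to 25.8%). Ranked by −log10 q instead, the 85 highest gave 11 of 72 (15.3%, 8.75 to 25.3%) at starts and 7 of 13 (53.8%, 29.1 to 76.8%) away from them.

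**Figure D2:**
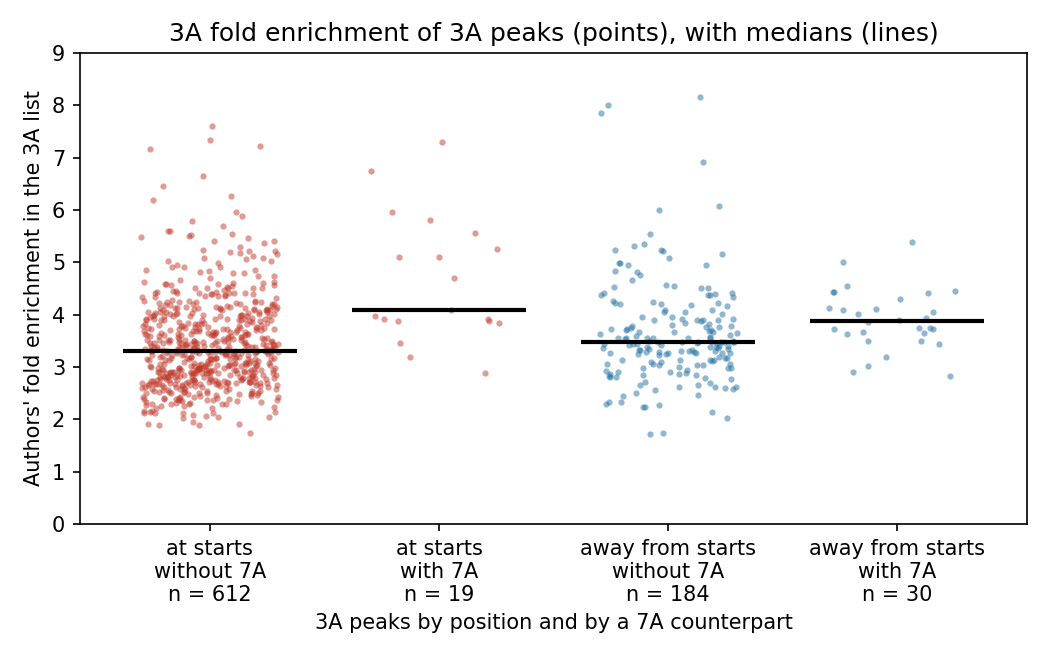
Fold enrichment of each 3A peak in the authors' 3A list (y axis) by position and by whether 7A had an overlapping peak (x axis). Points are peaks and lines are medians, which were 3.32 and 4.09 at starts without and with 7A, and 3.47 and 3.88 away from starts.

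**Figure D3:**
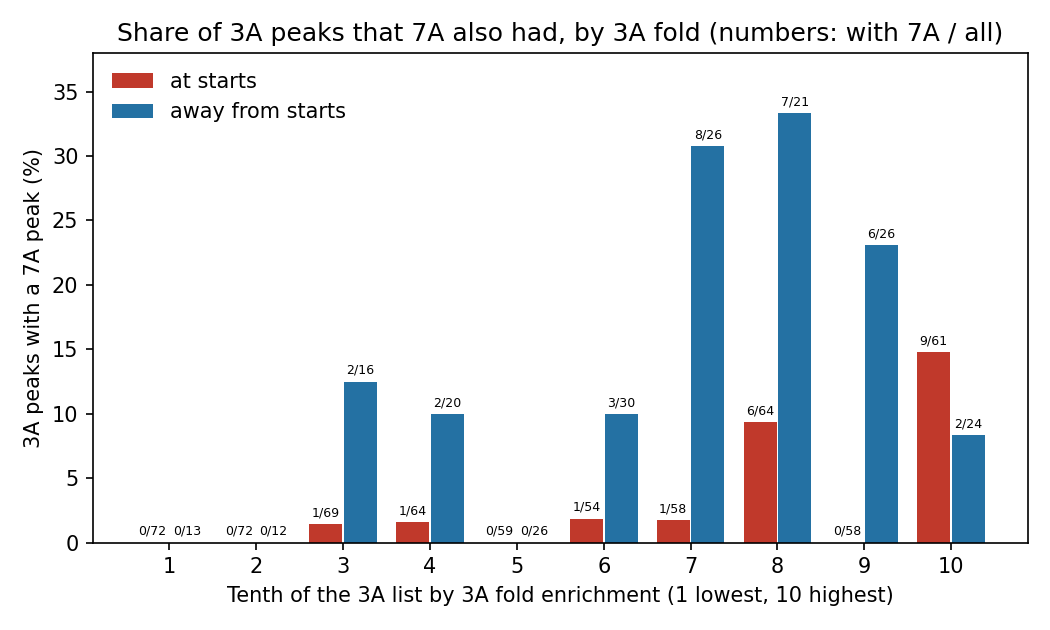
Percent of 3A peaks with a 7A peak (y axis) in 10 equal groups of the 3A list ranked by 3A fold (x axis, group 10 highest), at starts and away from them, with the counts above the bars. Away from starts the shared peaks were most frequent in groups 7 to 9, and at starts in group 10, where 9 of 61 were shared.

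The local background was close in the 2 sets. Recovered from the authors' fold and p, its median was 19.1 (quartiles 14.6 to 26.2) at shared 3A peaks and 19.7 (14.6 to 25.2) at 3A peaks without 7A. The recovered IP pileup had medians of 78.0 and 67.0. Shared 3A peaks were 643 bp wide in the median, and those without 7A 570 bp. WT MYC had a peak at 43 of 49 shared sites (87.8%, 75.8 to 94.3%) and at 690 of 796 3A peaks without 7A (86.7%, 84.1 to 88.9%). Where WT had a peak, its median fold in the WT list was 5.87 (quartiles 4.73 to 8.78) at shared sites and 6.74 (4.81 to 9.25) at the others.

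Of the 10 3A peaks with the highest fold, 8 had no 7A peak. The 2 that did were at RPL27 and at the paired starts of ASPRV1 and PCBP1. Among the 8 were start sites of RPL5 and RPL36, ribosomal protein genes (3A folds 7.60 and 7.16), of ING5, a subunit of histone acetyltransferase complexes (7.34), and of SLC33A2 (7.23). The other 4 were away from starts. One lay 76620 bp from METTL9 and within 1 kb of the pseudogene SLC7A5P2 (8.15), one 40188 bp from FOXK1, a forkhead factor gene (8.00), one 7522 bp from MYO1G and within 1 kb of the small nucleolar RNA host gene SNHG15 (7.86), and one within 1 kb of the host gene SNHG17 (6.91). WT MYC had a peak at each of these 8, with WT folds from 12.5 to 29.6. The helicase gene DHX33 (6.65) and the DNA damage kinase gene ATR (6.46) came next among 3A peaks without 7A, also at their starts.

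By −log10 q, the 10 strongest 3A peaks without 7A added NPM1, which encodes the nucleolar protein nucleophosmin (3A fold 6.20), the histone methyltransferase gene KMT2A (3.71) and ZNF131 (5.59), each at its start. It also added 2 sites with low folds and very high recovered backgrounds, neither with a WT peak. One was 5702 bp from ZNF23 (fold 2.27, background 322), and one was inside VRK3 (fold 1.74, background 826). The other 5 were sites already given above.

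The protein-coding genes at the sites followed the same pattern. 3A had a summit within 1 kb of the start of 728 of 20037 genes (3.63%) and 7A of 27 (0.135%). Of the 728 genes, 21 also had a 7A summit (2.88%, or 0.105% of all genes), and 20 of those 21 had a WT summit as well. Of the 27 genes, 6 had no 3A summit. At a −log10 q of at least 10, the 7A count fell to 13 and that of both mutants to 11. Genes that share a start region count separately.

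Most 3A genes of the groups below had no 7A summit, like 3A genes as a whole, of which 2.88% had one. The shares in these 3 lists were above that, but rest on counts of 4, 3 and 1. Of 88 cytosolic ribosomal protein genes, a list that includes the ribosomal-protein-like paralogs, 47 had a 3A summit (53.4%, against 3.63% of all genes). Of them 4 also had a 7A summit, where 2.88% of all 3A genes had one (RPL27, RPL37, RPL37A and RPL10A), and RPL32 had a 7A summit only, which makes 5 of 88 for 7A (5.68%, against 0.135% of all genes). At a −log10 q of at least 10 there were 3 for 7A. Among 46 splicing and hnRNP genes, 15 had a 3A summit and 3 of these a 7A summit (PCBP1, SNRPB and SF3B3). At a −log10 q of at least 10 the counts were 9 for 3A and 1 for 7A. SNRPE, which encodes another Sm protein, had a 3A fold of 5.22 and no 7A peak. Of 27 chaperone genes 9 had a 3A summit and 1, CCT7, also a 7A summit, while CCT4 (4.32) and the pair HSPD1 and HSPE1 (4.02) had 3A alone. CCT7 and CCT4 encode subunits of the same chaperonin, TRiC. At a −log10 q of at least 10 the chaperones had 0 for 7A.

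Other growth gene groups had 3A summits and no 7A summit. Their 3A shares, in the order given below, were 43.3, 26.7, 22.4 and 16.9%, against 3.63% of all genes. The lists overlap, and NPM1, for example, is counted among both the MYC targets and the nucleolar genes. For 30 canonical MYC targets the counts were 13 and 0, led in the 3A list by the nucleoside diphosphate kinase gene NME1 (6.27) and NPM1 (6.20). For 60 nucleolar ribosome biogenesis genes they were 16 and 0, with HEATR1 (4.51), NOB1 (4.39) and RRP1B (4.36) after NPM1. Translation factor genes had 13 and 0 of 58, led by the cap-binding gene EIF4E (4.33) and the elongation factor gene EEF2 (4.26). Mitochondrial ribosomal protein genes had 13 and 0 of 77, led by MRPL3 (5.49) and MRPL20 (4.39), and 8 for 3A at a −log10 q of at least 10. At 0.135% of all genes for 7A, a count of 0 in lists of this size is near the background and says nothing about these lists.

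The remaining lists also had a 7A count of 0, which is likewise near the background. Their counts of 3A summits stand beside 3.63% of all genes. They were 6 of 31 (19.4%) for nucleotide and polyamine synthesis, led by NME1 with PPAT and PAICS at 3.63 each, 4 of 20 (20.0%) for glycolysis, led by HK2 (3.31), and 2 of 37 (5.41%) for aminoacyl-tRNA synthetases, IARS1 (4.56) and YARS1 (3.99). The counts were 6 of 94 (6.38%) for the respiratory chain, led by NDUFS1 (4.08), 2 of 48 (4.17%) for the proteasome, PSME3 (4.94) and PSMG4 (3.97), and 2 of 13 (15.4%) for the MYC, MAX and MLX network. Those of the proteasome and the synthetases are near the share of all genes. With a window of 500 bp the network count fell to 1. Glycolysis fell to 2 at a −log10 q of at least 10. The 2 in the network were MXD3 (4.46), whose product competes with MYC for MAX, and MGA (3.89). Replication-dependent histone genes (69), mesenchymal, bone and matrix genes (49), liver-restricted genes (25) and neuron-restricted genes (25) had no summit of either mutant within 1 kb of a start. With a window of 5 kb, 1 mesenchymal gene had a 3A summit.

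The 19 shared sites at starts held 21 genes. At RPL27 (chromosome 17, 42998259 to 42998777) the 7A fold was 4.33 and the 3A fold 7.30, the highest 3A fold of all shared sites. At the ASPRV1 and PCBP1 site (chromosome 2, 70086199 to 70087131) they were 2.45 and 6.75. PCBP1 encodes a poly(C)-binding RNA protein and ASPRV1 a skin protease. SNRPB, which encodes a core Sm protein of the spliceosome, had 3.12 and 5.96 (chromosome 20, 2470509 to 2470921). These 3 sites held places 1, 2 and 3 in 3A fold among the 49 shared sites, and places 4, 47 and 38 in 7A fold.

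RPL37A, a ribosomal protein gene of the large subunit, had a 7A fold of 2.91 and a 3A fold of 5.56. SF3B3, a gene of the U2 particle that shares its site with the Golgi gene COG4, had 3.27 and 5.11. CCT7 had 2.76 and 5.11, and RPL10A 2.52 and 4.70. All 4 were among the first 11 shared sites by 3A fold and at place 33 or below of 49 by 7A fold. RPL37 was the exception among the listed genes, with 3.55 in the 7A list (place 20) and 3.87 in the 3A list (place 30).

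The 8 start sites with a gene of one of the lists thus changed place between the 2 rankings of the same 49 sites. Their median place was 6.50 by 3A fold and 39.5 by 7A fold, and 7 of 8 stood lower in the 7A ranking. Those 7 were all among the first 11 places by 3A fold, which left little room to stand higher. The other 11 start sites had a median place of 27 in both. The 30 sites away from starts had a median place of 29.5 by 3A fold and 21.5 by 7A fold, and 21 of 30 stood higher in the 7A ranking. Within the 3A list, shared sites at starts had a median fold of 4.09 (quartiles 3.87 to 5.41) and those away from starts 3.88 (3.63 to 4.25). Within the 7A list the order of the medians was the other way, 3.27 (3.02 to 3.77) and 3.50 (3.27 to 4.07). The quartile ranges overlap in both lists. Ranked by −log10 q, 12 of 19 start sites stood lower in the 7A ranking and 20 of 30 other sites stood higher. Because each ranking holds the same 49 places, a fall of some sites raises the rest. The rise of the sites away from starts is therefore not a result separate from the fall of the start sites. The lists were chosen with earlier results of these data known, and levels were not compared between the 2 lists.

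**Figure D4:**
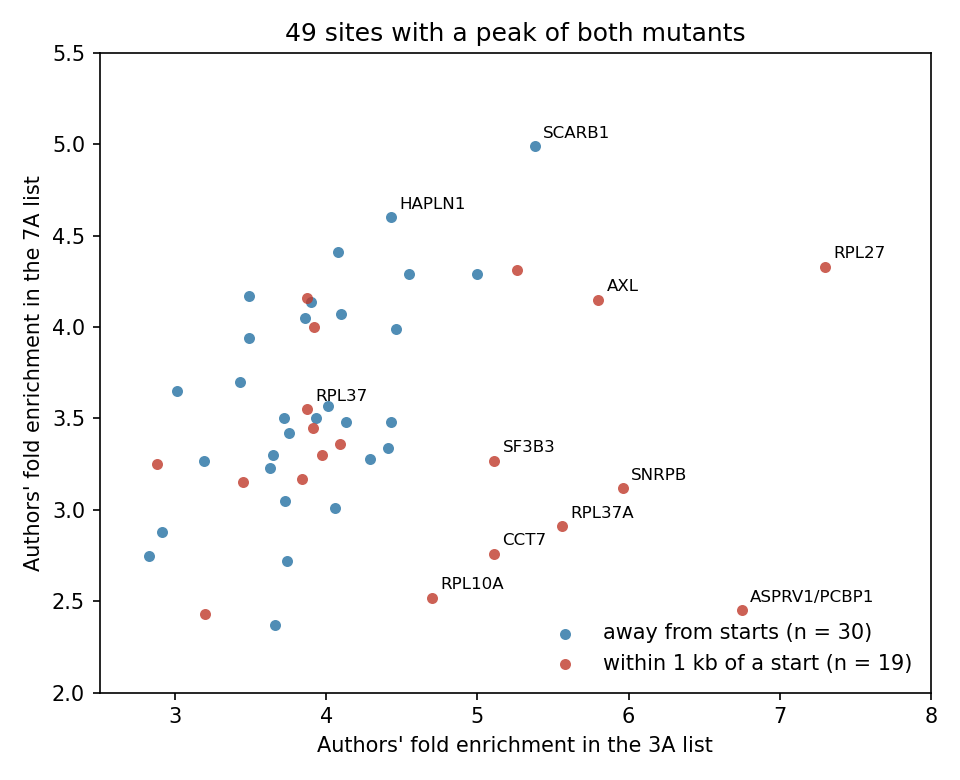
The authors' 3A fold (x axis) and 7A fold (y axis) of the 49 sites with peaks of both mutants, by position. Each point is 1 site, named for a few by its nearest gene. The start sites of SNRPB, RPL37A, CCT7, RPL10A, SF3B3 and ASPRV1/PCBP1 lie at 3A folds of 4.70 to 6.75 and 7A folds of 2.45 to 3.27. RPL27 lies to the right of them, at a 3A fold of 7.30. The lowest 7A folds, 2.37 at ATAD2 and 2.43 at ZNF76, lie at 3A folds of 3.66 and 3.20.

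The recovered pileups are given for each list, first at 5 sites picked as examples. Read totals and scaling are unknown, so a difference between the lists is not a measured change in binding. At RPL27 the pileup was 97 over a background of 12.4 for 3A and 57 over 12.4 for 7A. At SNRPB it was 146 over 23.7 and 74 over 23.0, and at the ASPRV1 and PCBP1 site 220 over 31.7 and 80 over 32.0. At the site whose nearest gene was HAPLN1, away from starts, it was 51 over 10.7 for 3A and 52 over 10.5 for 7A. Inside SLC2A1 it was 69 over 17.1 and 78 over 18.5. Of these 5 sites, ASPRV1 and PCBP1 had the highest pileup and HAPLN1 the lowest within each list. The SLC2A1 site stood below RPL27 and SNRPB in the 3A list and above both in the 7A list. These examples do not separate start sites from the rest, as other shared sites went the other way. At the starts of HUS1 and MTF2 the pileups were 73 and 77 for 3A, and 82 and 74 for 7A. Away from starts, the site inside ATAD2 had 106 for 3A and 82 for 7A. The site within 1 kb of SCARNA2 had 112 and 78.

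The other start sites of both mutants held genes of varied function. RCOR3, a corepressor gene of the CoREST family, had a 7A fold of 4.31 and a 3A fold of 5.26 (chromosome 1, 211258856 to 211259351). MTF2, which encodes a Polycomb-associated protein, had 4.16 and 3.87. AXL, a receptor tyrosine kinase gene, had 4.15 and 5.80 with its summits 251 bp apart, the widest offset of all shared sites. RAB5C, a gene of an early endosome GTPase, had 4.00 and 3.92 and was the only shared start site without a WT peak. These 4 were among the first 14 shared sites by 7A fold.

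Lower 7A folds were found at other start sites, among them those of SLC39A11 (3.45), PLEKHG4 (3.36), the GTP-binding protein gene DRG2 (3.30), the checkpoint clamp gene HUS1 (3.25), VPS13B (3.15) and ZNF76 (2.43). Their 3A folds were 3.91, 4.09, 3.97, 2.88, 3.45 and 3.20, and each had a WT peak. At DRG2 the 2 summits were 1 bp apart. The ZNF76 site had the highest recovered background of the shared sites, 78.1 for 7A and 82.1 for 3A.

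The 3 highest 7A folds were away from starts. The first was 4.99 at a site 30759 bp from SCARB1, the gene of a lipoprotein receptor (chromosome 12, 124745883 to 124746402), where 3A had 5.38, WT had 8.03 and the mutant summits were 3 bp apart. The second, 4.60, was 204751 bp from the matrix gene HAPLN1 (chromosome 5, 83925409 to 83925856), with a 3A fold of 4.43 and no WT peak. The third, 4.41, was inside the adhesion gene TENM2 (3A fold 4.08). Other high 7A folds away from starts were at sites 143711 bp from the cyclin D1 gene CCND1 (7A 4.29, 3A 4.55) and 23486 bp from CCN1, a matricellular protein gene (7A 4.29, 3A 5.00). A site 433824 bp from MYC had a 7A fold of 4.17 and a 3A fold of 3.49, and the highest −log10 q among shared 7A peaks, 24.1. The nearest gene need not be a target.

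Other shared sites away from starts had 7A folds from 2.37 to 4.14. Inside genes they lay in LGR6 (7A 4.07, 3A 4.10), SLC2A1, the glucose transporter gene (4.05 and 3.86), NNMT (3.70 and 3.43), CUEDC1 (3.48 and 4.13), ZNF469 (3.42 and 3.75) and ATAD2 (2.37 and 3.66). Outside genes, 2 neighbouring pairs stood out by position. The summits of 1 pair were 3102 bp apart near LIF, a cytokine gene (7A folds 3.99 and 3.27), and those of the other 15677 bp apart, over 500 kb from MN1 (3.01 and 2.75). A further site was 118101 bp from CEBPB (3.50) and within 1 kb of the noncoding gene LINC01270. A site with a 7A fold of 2.72 was within 1 kb of the small Cajal body RNA gene SCARNA2. Of the 6 shared sites without a WT peak, 5 were away from starts.

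The 15 7A peaks without a 3A peak had lower medians in the 7A list than the shared ones. Their median −log10 q was 8.67, against 12 for the shared 7A peaks, and their median fold 3.23, against 3.45. WT had a peak at 6 of 15 (40.0%, 19.8 to 64.3%), an interval below that of 75.8 to 94.3% for shared sites. The 5 at starts were those of RPL32, a ribosomal protein gene (7A fold 2.44, WT fold 6.61), SLC25A45, of the mitochondrial carrier family (3.54, WT 5.94), TMBIM4 (3.29, WT 3.90), TMEM242 (2.64, no WT peak) and the paired starts of RGS5 and the kinetochore gene NUF2 (3.13, no WT peak). The RPL32 peak had the lowest −log10 q of the 7A list, 3.81, and the nearest 3A peak was 283985 bp away.

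The other 10 lay away from starts. Inside genes they were in SVIL, an actin-binding protein gene (4.38), and in the methyltransferase gene SMYD3 (3.11). Outside genes, 1 was 8526 bp from CCN4 (3.59), and 6 were over 50 kb from a start. Those 6 were nearest to ROBO1 (4.09), ERBIN (3.90), DRD1 (3.53), MEIS1 (3.23), COBL (2.92) and UQCRFS1 (2.63). The distances to these genes, in that order, were 512760, 64471, 99477, 454120, 290008 and 1478897 bp. WT had a peak at the DRD1, MEIS1 and SMYD3 sites, with WT folds of 3.85, 4.99 and 5.60. The last of the 15 was on the mitochondrial chromosome (15981 to 16450), with the lowest fold of the 7A list, 1.41, and the highest −log10 q, 141. Neither 3A nor WT had a mitochondrial peak.

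The promoter sequences were searched for the motifs marked above, on both strands, in windows of 300 bases from 250 before to 50 after the start. Matches may overlap. A sequence was found for 15 of 21 genes with both mutants and 598 of 707 genes with 3A only. CACGTG was present in 1 of 15 (6.67%, 1.19 to 29.8%), at SLC39A11, and in 105 of 598 (17.6%, 14.7 to 20.8%), where 8.34% of all 22199 protein-coding promoters had it. CACGCG was present in 2 of 15 (13.3%, 3.74 to 37.9%) and 156 of 598 (26.1%, 22.7 to 29.8%), against 14.3% of all. CATGTG was present in 1 of 15 and 34 of 598 (5.69%), against 8.93%. The share of all promoters counts promoters, of which some genes have several, whereas the other shares count genes. With 15 promoters the intervals of both mutants and 3A only overlap for each motif.

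At SLC39A11 the CACGTG began at position -27 from the start, and the 7A summit lay at -25. AXL had CACATG at -79 and also CACGCG at 4, past the bases shown, and RPL36, without 7A, had CGCGTG at -75. The window of RPL27, with the highest 3A fold of the shared sites, held none of the motifs. Of the 5 sequences for genes with 7A alone, none held one. The promoters with 3A only had a median of 65.3% G+C and 29.0 CpG in 300 bases, those with both mutants 61.7% and 22.0, and all protein-coding promoters 62.3% and 21.0. The part of this difference in the motif counts was not tested. Most shared sites lay away from starts, and their sequences were not analysed here.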

How the data were processed

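Binding was measured by ChIP-seq with a mouse reference genome (ChIP-Rx). Tools listed in the submitters' processing notes are MACS2, Bowtie2, cutadapt, Picard and SAMtools, with no version. The notes list hg38, hg19 and mm10 with no role. The authors deposited 1 peak list per protein, and how the 2 libraries, the control and the mouse reads entered it is not given in the sources used here, nor are read totals. Each peak has the authors' fold enrichment (a ratio), the authors' −log10 p and −log10 q, and a deposited score, which was not used. The fold was used within 1 list.

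To find the build, WT summits were set against protein-coding starts of GRCh38.p14 (hg38). Of them, 66.0% were within 1 kb, against 4.15 and 3.52% after shifts of 100000 bp to either side. Starts came from a RefSeq promoter table (15843 of 20037 genes), and for other genes, all those of chromosome 8 included, either end of the span was used. Translation factor symbols that match kinases, methyltransferases or binding proteins were left out, a choice made after values were seen. All 326 genes listed by symbol matched.

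Pileup and background at a summit were recovered from fold = (pileup + 1)/(background + 1) and a Poisson p, within 0.02 of a step for 845 of 845 3A and 63 of 64 7A peaks. Tested on simulated data, 500 of 500 pileups and 100 of 100 overlaps of 1 bp were found. The members, lists and rules were chosen with earlier results of these data known. Named sites were every 7A peak without 3A, shared 7A peaks at starts or among the 10 highest folds, the 10 highest 3A folds and −log10 q without 7A, and up to 4 members per list. Other shared sites were named after their values were seen, and 1 shared site at a start is not reported here by name. Alternatives covered the overlap rule, −log10 q, window, merging and gene set. Scripts ran in Python 3.11.15 with matplotlib 3.10.9, pandas 2.3.3, scipy 1.17.1 and numpy 2.4.6.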

Additional observations from a re-analysis of the deposited data

How the results depend on the processing

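The share of 3A peaks with a 7A peak was 5.80%, and 4.14% with 7A peaks limited to a −log10 q of at least 10. The share of 7A peaks with a 3A peak was 76.6%, and moved to 60.9% with summits within 100 bp, to 87.2% at a −log10 q of at least 10 in both lists and to 89.7% with that limit on 7A alone. The share of 3A summits without 7A at a start, 76.9%, was 72.2% with a window of 500 bp, 80.9% with 5 kb, 71.0% with either end of the gene span and 82.7% with genes of every type. For shared 3A summits these settings gave 36.7, 44.9, 36.7 and 42.9%, below the others in each. At a −log10 q of at least 10, 13 genes were at a 7A summit, 11 at summits of both mutants, and 3 ribosomal protein genes at a 7A summit. Single gene lists moved in 7 further cases. At that limit, 3A counts fell from 15 to 9 for splicing, from 13 to 8 for mitochondrial ribosomal proteins and from 4 to 2 for glycolysis, and 7A counts from 3 to 1 for splicing and from 1 to 0 for chaperones. The MYC network fell from 2 to 1 for 3A at 500 bp, and the mesenchymal list rose from 0 to 1 at 5 kb. The other values, 43 for the main results and 89 for single gene lists, stayed within their interval, or within 1.5 times for counts. No paired analysis was possible because each protein has 1 pooled list, which also left no replicate to leave out. The cause of these changes was not tested. Read totals were not used here, so the limit that depth sets on a missing 7A peak could not be given.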
